A study of Mus musculus with 21 samples.

Results

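Transgenic mice kept on a doxycycline diet were compared with mice that lacked the transactivator, using microarrays of total RNA from the dentate gyrus of the hippocampus. The comparison used 6 of the 21 arrays of the series, chosen by group label alone: 3 arrays of bitransgenic mice with doxycycline continuously in the diet and 3 arrays of monotransgenic mice given water, both from set 1. The bitransgenic mice carried the pTRE/NgR transgene and the transactivator tTA. The monotransgenic mice carried the NgR transgene without tTA, and their labels also speak of doxycycline being removed without saying whether these mice had received it before. Thus all 6 arrays held the transgene and in none was it meant to be expressed. Another group of set 1 held 3 arrays of bitransgenic mice whose doxycycline had been removed to turn NgR on. Set 3 (3 bitransgenic and 3 monotransgenic arrays, treatment not given in the labels) and experiment 2 (3 bitransgenic arrays never exposed to doxycycline and 3 monotransgenic arrays on water) served as independent arrays. The labels name neither the promoter that drives tTA nor the age, sex or strain of the mice, and they do not state whether each sample is a different mouse. The p-values therefore reflect sample-to-sample spread, part of which may be technical. Groups of 3 limit the precision of every value.

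NgR, the product of Rtn4r, is a receptor on axons for myelin proteins such as Nogo, and it restrains axon growth. In a tet-off system tTA binds the promoter of the transgene and drives it, and doxycycline releases tTA from the promoter. The dentate gyrus is the entry station of the hippocampus, its principal neurons are the granule cells, and it keeps making new neurons in adult mice. The comparison asks which genes differ when the transgene is held off, that is, what the tTA insertion and the drug leave behind as background. The groups differ in tTA and in doxycycline together, so the effects of the insertion and of the drug cannot be told apart here. In the text below, diet, mono and removed stand for the 3 groups of set 1.

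The intensities are linear values as deposited. Log2 differences are diet minus mono on normalized log2(intensity + 16) values, which understate changes of dim genes, and each is given with its standard error from limma. The term called means a limma p of at most 0.05 after Benjamini-Hochberg adjustment over the 12499 genes tested. The 6 arrays were alike over all genes, with Pearson correlations of 0.986 to 0.988 within groups and 0.984 to 0.986 between them. The markers of the labelled tissue were high: the granule cell gene Calb1 (calbindin) stood at 3755 to 7045, Dsp (desmoplakin) at 3308 to 4629 and the granule cell transcription factor gene Prox1 at 610 to 815 in the 6 arrays. The Y-linked Eif2s3y was between 395 and 680 and Xist between 12.2 and 33.7 in all 9 arrays of set 1, while in experiment 2 Eif2s3y was at most 9.84 and Xist at least 2361, so the arrays of experiment 2 differ from set 1 in sex. One measure of RNA integrity separated the groups: the log2 ratio of 3' to 5' Gapdh control probe sets was 3.95, 4.07 and 4.02 in diet and 4.40, 4.28 and 4.17 in mono, while the same ratio for actin overlapped.

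Rtn4r itself was low in both groups, and their arrays overlapped. Its intensity was 111, 87.0 and 73.1 in diet and 63.8, 98.4 and 79.0 in mono, against 1469, 329 and 254 in removed. All 3 removed arrays lay above every diet and mono array. The difference of diet from mono was 0.14 ± 0.40 log2 units (limma adjusted p = 1, exact permutation p = 0.5 over 20 labelings, two-sided, the smallest possible being 0.1). With the doxycycline diet the transgene was thus not detectable above the mono level at this precision. The NgR pathway held no called gene: of 10 members measured, 7 were higher and 3 lower, with a median of 0.05. Rtn4 (Nogo, the ligand) stood at 7345, 7445 and 6886 in diet and 8995, 8102 and 6703 in mono, a difference of −0.06 ± 0.07. The co-receptor gene Lingo1 was the single member whose groups did not overlap, at 123, 158 and 116 against 174, 242 and 214 (−0.61 ± 0.27, adjusted p = 1). Over all genes 7.58% were lower without overlap.

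Across all genes few differences were called. Of 12499 genes 3 were called (0.024%): Ogn and Tox3 fell and Septin6 rose, while 481 had an unadjusted p below 0.05. The median difference was 0.00 and 50.1% of genes were lower in diet. The 3 diet and the 3 mono arrays did not overlap for 912 genes that were higher in diet (7.3%) and 948 that were lower (7.58%). The spread in this fit is pooled over all 21 arrays, and the arrays of experiment 2 varied more than those of set 1: per gene, the SD had a median of 0.15 in diet, 0.14 in mono, and 0.30 and 0.28 in the bitransgenic and mono arrays of experiment 2. Fitted on the 9 arrays of set 1 alone, 9 genes were called higher (0.072%) and 23 lower (0.184%), and the 3 genes above were among them. In that fit 1088 genes had an unadjusted limma p below 0.05. Without any 1 of the 6 arrays the fit over the remaining 20 arrays called 0 genes, and with the Gapdh ratio as a covariate it also called 0. With that covariate Ogn differed by −4.47 (adjusted p = 0.213), Tox3 by −1.80 (0.115) and Septin6 by 1.59 (0.0629). None of the 3 differences was smaller in size. The ratio itself separated diet from mono, so this fit cannot tell RNA integrity and group apart.

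Ogn showed the largest difference of all genes tested. It codes for osteoglycin (mimecan), a small leucine-rich proteoglycan of the extracellular matrix. Its intensity was 8.54, 26.8 and 16.5 in diet and 556, 728 and 636 in mono. The diet arrays were near the dim end of the array and the mono arrays all far above them. Ogn fell by 4.37 ± 0.74 log2 units (20.7-fold on this scale, adjusted p = 0.038). Because the diet level is dim the size depends on the offset: the difference was −5.34 with an offset of 1 and −3.13 with an offset of 64 (adjusted p = 0.0652), and −2.85 (0.0935) with the mean of probe sets. A second, dimmer probe set of Ogn had 9.32, 21.4 and 11.8 in diet and 54.9, 65.7 and 50.5 in mono, also without overlap. The removed arrays, at 11.7, 26.8 and 24.2, matched the diet arrays and not the mono arrays. Leaving out 1 array at a time kept the difference between −4.56 and −4.17, with adjusted p of 0.177 to 0.261.

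Tox3, which codes for an HMG-box protein that acts in calcium-dependent transcription in neurons, gave the lowest p. It stood at 55.6, 63.0 and 49.0 in diet and at 239, 234 and 194 in mono. All diet arrays lay far below the mono arrays, and the removed arrays, at 40.04, 79.1 and 48.0, lay with the diet arrays. In the independent arrays the bitransgenic minus mono difference of Tox3 was −0.78 in set 3 and 0.02 in experiment 2. Tox3 fell by 1.74 ± 0.26 (3.34-fold, adjusted p = 0.0265) and, with 1 array left out, the difference lay between −1.85 and −1.68 (adjusted p of 0.0625 to 0.206). Of the 4 family members measured, Tox3 and Tox were lower without overlap (7.58% of all genes). Tox differed by −0.70 ± 0.22 (adjusted p = 0.855), and the others were within 0.1 of 0.

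Septin6 was the only called gene that rose, and it differed from the other calls in its pattern over set 1. It codes for a septin, a GTP-binding protein of the cytoskeleton. Its intensity was 244, 210 and 198 in diet and 89.5, 82.4 and 56.5 in mono, a rise of 1.34 ± 0.23 (2.54-fold, adjusted p = 0.038; 1.17 to 1.45 with 1 array left out, adjusted p of 0.157 to 0.261). The removed arrays stood at 94.4, 92.4 and 67.6, beside mono and below every diet array, and the diet minus removed difference of 1.16 had an adjusted p of 0.0879 in the fit over all arrays and of 0.00955 in set 1 alone. The gene has 6 further probe sets on the array, all dimmer. The brightest of these over all 21 arrays had 32.9, 29.0 and 18.6 in diet against 24.2, 10.8 and 15.8 in mono, with overlap, while the next had 46.9, 38.3 and 48.9 against 21.9, 3.33 and 16.3, without. With the mean of the probe sets the rise was 0.76 (adjusted p = 0.152). Of 10 septin genes measured 7 were higher in diet, with Septin6, Septin8 (0.18) and Septin9 (0.26) without overlap (7.3% of all genes). None but Septin6 was called.

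**Figure D1:**
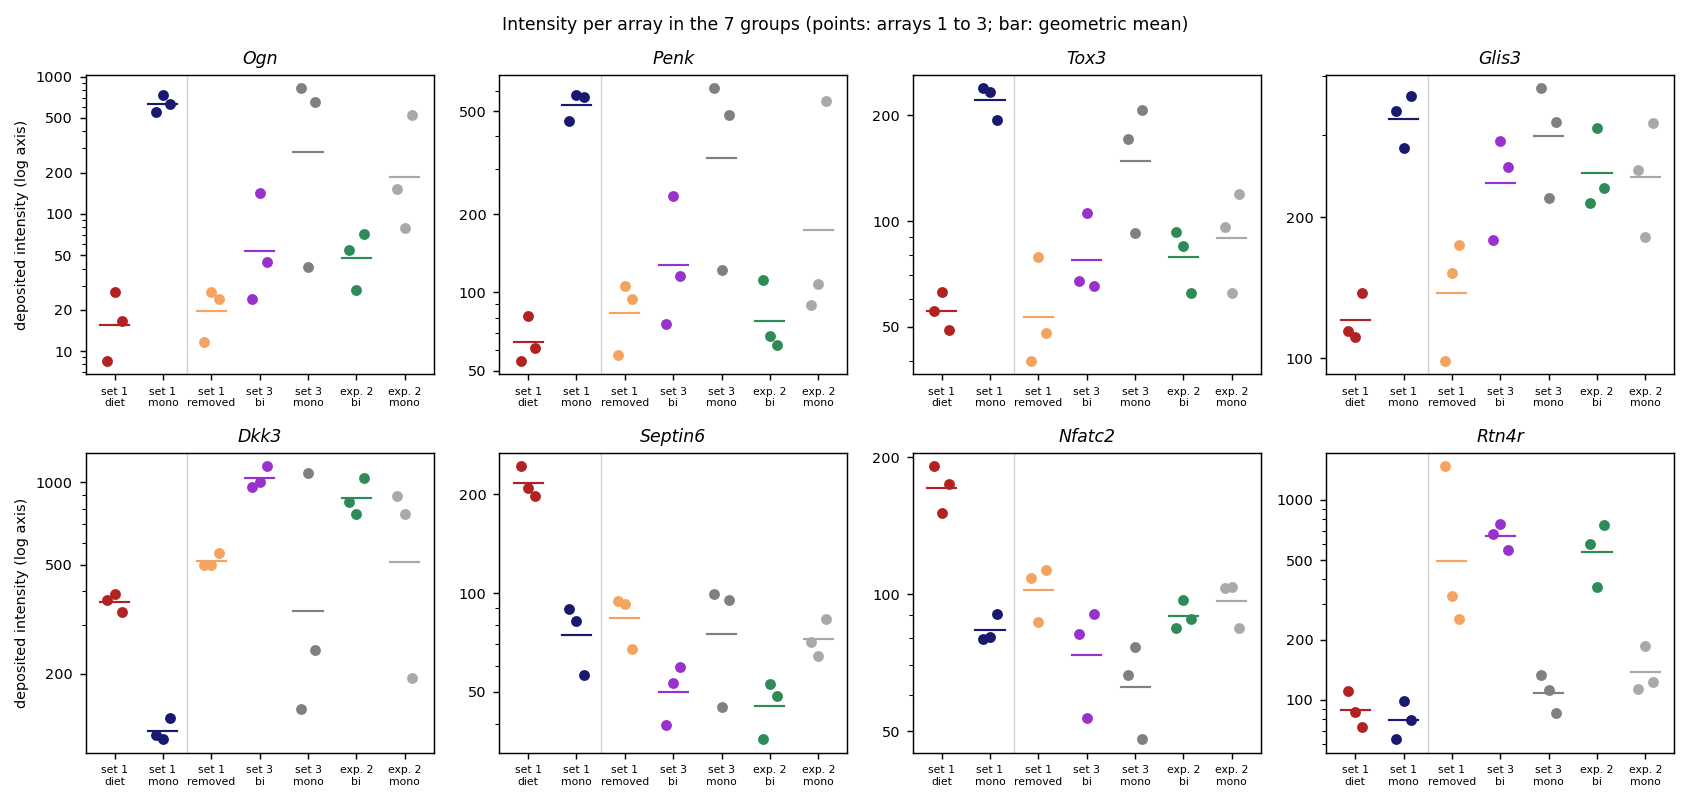
Deposited intensity (log axis) of 8 genes in each of the 21 arrays, by group (diet and mono of set 1 left of the grey line, then removed of set 1, set 3 bitransgenic and mono, experiment 2 bitransgenic and mono); points are arrays and bars geometric means. Ogn, Penk and Tox3 are low and Dkk3 high in all 3 diet and all 3 removed arrays against the set 1 mono arrays, Septin6 and Nfatc2 are high in diet alone within set 1, and Rtn4r is high in the removed arrays and in the bitransgenic arrays of set 3 and experiment 2.

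Among the 32 genes called in set 1 alone, most were shifted in removed as well as in diet, as the heat map of these genes shows. These genes were chosen on diet and mono, and removed minus mono shares the mono arrays, so the pattern is a description. In 16 of the 32, all 6 bitransgenic arrays lay below all mono arrays, a pattern that 3.12% of all genes tested had. All 6 lay above mono in 6 (2.58% of all genes). In 7 the diet arrays lay below the removed and mono arrays alike (1.48% of all genes), and in 3 above both (1.46%).

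The genes low in all 6 bitransgenic arrays included a neuropeptide, a neuropeptide receptor and several signalling genes. Penk codes for proenkephalin, the precursor of the enkephalin opioid peptides, and stood at 54.6, 80.8 and 61.0 in diet and 459, 577 and 566 in mono, with 57.5, 106 and 94.5 in removed. Diet and mono were far apart, at −2.76 ± 0.53 (adjusted p = 0.116; 2.89e-05 in set 1 alone). Glis3, a Krüppel-like zinc finger factor gene expressed in granule cells, had 114, 111 and 138 in diet, 336, 281 and 362 in mono and 98.7, 152 and 174 in removed (−1.32 ± 0.24, adjusted p = 0.0801; 0.00991 in set 1 alone). Npy2r, the gene of a presynaptic receptor for neuropeptide Y, had 470, 456 and 450 in diet and 835, 749 and 794 in mono, with removed lower still at 205, 282 and 215 (−0.78 ± 0.44, adjusted p = 1; 0.0198 in set 1 alone). Groups of 3 were tight in all of these and did not overlap. Lum, which codes for the matrix proteoglycan lumican, differed by −1.25 ± 0.28 (adjusted p = 0.227; 0.0491 in set 1 alone), Lypd1, a modulator of nicotinic receptors, by −0.92 ± 0.19 (0.214; 0.0198), and Ric8a, a chaperone of G protein alpha subunits, by −0.75 ± 0.16 (0.219; 0.0331). The other members with this pattern were Ctnna2, Ddit4l, Itga8, Pik3r1, Ptgs2, Sipa1l2, Unc13c and Wnt9a, with differences from −1.30 (Unc13c) to −0.59 (Sipa1l2), besides Ogn and Tox3.

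Dkk3 led the genes that were high in all 6 bitransgenic arrays. It codes for a secreted relative of the Dickkopf inhibitors of Wnt signalling, and stood at 370, 390 and 336 in diet, 119, 116 and 138 in mono and 499, 498 and 553 in removed. A second probe set had 118, 87.6 and 87.1 in diet and 32.6, 33.2 and 37.0 in mono. Every diet array was above every mono array in both probe sets. The difference was 1.45 ± 0.51 (adjusted p = 0.896; 4.26e-05 in set 1 alone). The gap between these p-values goes with the spread outside set 1, where Dkk3 ran from 149 to 1075 within the mono arrays of set 3. The unnamed transcript 2900026A02Rik (1.07 ± 0.27), Nrip3 (1.00 ± 0.37), Pwwp2a (0.67 ± 0.22), the mitophagy gene Bnip3 (0.66 ± 0.17) and Zbtb20 (0.53 ± 0.25), a transcription factor gene of hippocampal neurons, made up the rest. Of these, Zbtb20 had 2974, 3162 and 2961 in diet against 2315, 2132 and 1959 in mono and 2957, 2801 and 3208 in removed.

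Fewer genes set the diet arrays apart from both other groups of set 1. The log2 Gapdh ratio did so as well, at 3.95 to 4.07 in diet, 4.17 to 4.40 in mono and 4.20 to 4.37 in removed. The part of RNA integrity in the differences between diet and removed was not tested. Nfatc2, which codes for a calcineurin-activated transcription factor, had 191, 151 and 175 in diet, 79.5, 80.6 and 90.2 in mono and 109, 87.0 and 113 in removed (0.92 ± 0.18, adjusted p = 0.119; 0.0198 in set 1 alone). Slc7a1, the gene of a cationic amino acid transporter, had 557, 491 and 554 in diet against 304, 363 and 312 in mono (0.68 ± 0.19, adjusted p = 0.574; 0.0286 in set 1 alone), with removed at 413, 482 and 410 below every diet array. On the low side, Crym, which codes for the thyroid hormone-binding protein mu-crystallin, had 424, 371 and 317 in diet, 857, 979 and 592 in mono and 879, 650 and 895 in removed (−1.07 ± 0.28, adjusted p = 0.427; 0.039 in set 1 alone). Flrt2, a cell adhesion and guidance gene, had 514, 532 and 506 in diet against 809, 743 and 900 in mono and 740, 852 and 813 in removed (−0.64 ± 0.15, adjusted p = 0.227; 0.0198 in set 1 alone). In each of these the removed arrays lay nearer mono than diet or between them. Chn2 (−1.01), Col6a1 (−2.01), H2aw (−0.49), Ltbp3 (−0.79) and Unc5d (−0.97) completed this group. None of these 10 genes, Septin6 included, passed in diet minus removed in the fit over all arrays. In the fit on set 1 alone, which called 85 of 12499 genes in that comparison (0.68%), 4 of the 10 passed: Septin6 (1.16 ± 0.17, adjusted p = 0.00955), Flrt2 (−0.60 ± 0.10, 0.0152), Crym (−1.07 ± 0.18, 0.0209) and Ltbp3 (−0.71 ± 0.13, 0.0258). The genes were chosen with the diet arrays that this comparison shares. Nfatc2 (0.62, adjusted p = 0.0718) and Slc7a1 (0.27, 0.34) did not pass. A second probe set of Nfatc2 had 75.9, 67.7 and 83.8 in diet and 44.7, 47.9 and 50.4 in mono. Dimmer probe sets of this gene went both ways in diet minus mono (0.50, 0.30, −0.29 and −0.33 on the deposited scale). Over the alternative fits the rise of Nfatc2 from mono to diet ran from 0.36 to 1.03.

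**Figure D2:**
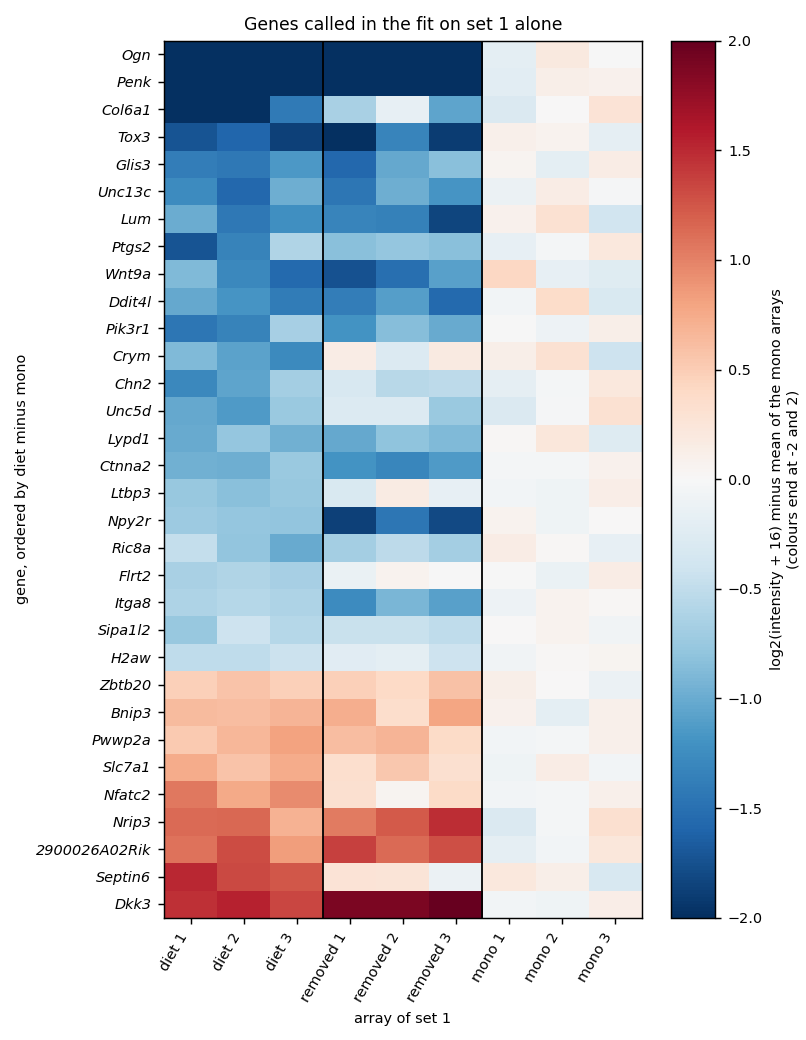
Heat map of the 32 genes called in the fit on set 1 alone over its 9 arrays (columns), coloured by log2(intensity + 16) minus the mean of the 3 mono arrays; colours end at −2 and 2. Most rows have one colour over the diet and removed columns (16 genes low and 6 high in all 6), while rows such as Septin6, Nfatc2, Crym and Flrt2 are coloured mainly in the diet columns.

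Among genes called in neither fit, Lpl, Igfbp5, Ermn and Dpy19l1 were among the 10 largest falls without overlap. Lpl codes for lipoprotein lipase, and stood at 113, 672 and 181 in diet and 1313, 1398 and 1148 in mono. Diet replicate 2 was well above the others and removed spread as widely (28.2, 704 and 44.8), which goes with the wide error of −2.34 ± 0.81 (adjusted p = 0.896). Igfbp5, which binds insulin-like growth factors, had 457, 467 and 343 against 1262, 1510 and 887 (−1.48 ± 0.46, adjusted p = 0.829). Ermn, the gene of the myelinating oligodendrocyte protein ermin, had 40.5, 46.9 and 108 against 167, 149 and 224 (−1.37 ± 0.49, adjusted p = 0.935), and Dpy19l1 differed by −1.35 ± 0.36. On the high side, Stap2 (1.04 ± 0.24), Snai2 (1.00 ± 0.30), Popdc3 (0.99 ± 0.25), Epb41l4a (0.93 ± 0.26) and Lrrc75a (0.92 ± 0.32) were among the 10 largest rises, again without a call in either fit. Of these Stap2 was at 24.6, 32.1 and 24.0 in diet and at 1.78, 5.13 and 7.01 in mono, at the dim end of the array.

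In the independent arrays the genes low in diet were mixed. The comparisons of set 3 and experiment 2 share no array with set 1, but Rtn4r was high in their bitransgenic arrays. Of the 23 genes called lower in set 1 alone, 19 were lower in bitransgenic mice of set 3 and 14 in experiment 2. The groups did not overlap for 1 of these in set 3 (4.72% of all genes) and 1 in experiment 2 (3.57%), while 1 of the 23 was higher without overlap in set 3 (8.78% of all genes). Of the 9 called higher, 5 and 6 were higher, none without overlap (5.12% of all genes in experiment 2), and 1 was lower without overlap in set 3. Over all genes 43.3% were lower in set 3 and 47.9% in experiment 2. The difference between the diet comparison and the other comparisons was tested gene by gene with limma: against set 3 0 genes were called (0%; 397 with unadjusted p below 0.05) and against experiment 2 also 0 (0%; 877). Thus no difference was shown to be particular to diet. For Septin6, which was lower in bitransgenic mice of set 3 (−0.41) and experiment 2 (−0.34), the difference from the diet comparison was 1.76 (adjusted p = 0.31) and 1.68 (0.24). Of the genes low in diet, Crym and Ltbp3 were higher in bitransgenic mice of set 3 (0.72 and 0.23) and of experiment 2 (0.65 and 0.32).

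The mono arrays outside set 1 did not form one level for these genes. Ogn stood at 824, 41.2 and 652 in the mono arrays of set 3 and at 153, 79.6 and 525 in those of experiment 2. The bitransgenic arrays were at 24.1, 143 and 44.9 in set 3 and 54.5, 27.9 and 71.9 in experiment 2. Replicate 2 of set 3 and replicates 1 and 2 of experiment 2 therefore lay near or within the bitransgenic range, and the other mono arrays were close to the level of set 1 mono. The opioid gene Penk followed the same arrays, at 614, 123 and 484 in set 3 mono and 89.6, 108 and 548 in experiment 2 mono. Dkk3 ran the other way in the same arrays, at 149, 1075 and 244 in set 3 mono and 892, 765 and 193 in experiment 2 mono. In all bitransgenic arrays of the series, with or without doxycycline, Ogn was at most 143 and Dkk3 at least 336. The genotype label alone thus did not set the level of Ogn, Penk and Dkk3 in mono arrays. In experiment 2 the titles of mono replicates 1 and 2 and of all bitransgenic arrays end in a suffix that the title of mono replicate 3 lacks, and in set 3 all titles carry it. The labels do not explain this suffix, and its part in these levels was not tested.

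Markers of other tissues and cell types were set beside Ogn and Penk, since matrix genes mark the meninges and Penk the striatum. In bulk tissue fewer cells of a type and less RNA per cell cannot be told apart. Of 10 meningeal and fibroblast markers measured 8 were lower in diet, 3 of them without overlap (Ogn, Lum and Foxc1; 7.58% of all genes were lower without overlap), with a median of −0.28. Col1a2 (0.50 ± 0.25) and Igfbp2 (0.20 ± 0.26) were higher with overlap, and Dcn (−0.01 ± 0.26) was near 0. The summed intensity of the 10 markers was 436 to 651 in diet and 1212 to 1470 in mono. Without Ogn and Lum the sums overlapped, at 386 to 606 and 371 to 821. The defining meningeal markers Slc6a13 (at most 1.99), Slc13a4 (at most 1.29), Col1a1 (at most 13.9) and Col3a1 (at most 11.9) were at the dim end in all 6 arrays and did not pass the filter on low values. Of 7 striatal markers 6 were lower, with a median of −0.17. Their sums were 1225 to 1498 in diet and 1789 to 2078 in mono, and without Penk 1170 to 1437 in diet and 1330 to 1513 in mono. Drd1 (−1.06 ± 0.32, adjusted p = 0.766) and the orphan receptor gene Gpr6 (−0.87 ± 0.24, adjusted p = 0.518) came next to Penk. In removed minus mono, which shares the mono arrays, Penk (−2.40) and Gpr6 (−0.77) were lower and Drd1 (0.01) was near 0. In diet minus mono Pde10a (0.09) was higher with overlap and Rgs9 (−0.05) was near 0. Ppp1r1b (at most 16.5) and Drd2 (at most 27.2) were below the filter. The part of other tissue in these results was not tested beyond these values.

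Granule cell markers were mostly lower in diet. Of 19 measured, 14 were lower and 5 higher, none was called, and the groups did not overlap for 9 that were lower and 2 that were higher, against 7.58% and 7.3% of all genes. Their median was −0.32, against 0.00 over all genes, and the mean deviation per array was −0.10, −0.14 and −0.11 in diet and 0.15, 0.09 and 0.10 in mono. After Glis3 the cation channel gene Trpc6 (−0.75 ± 0.45), the ciliary transcription factor gene Rfx3 (−0.65 ± 0.22) and the synaptic gene C1ql2 (−0.59 ± 0.60) were lowest. Calb1 stood at 5350, 5469 and 3755 in diet and 7045, 6522 and 5597 in mono (−0.37 ± 0.14, adjusted p = 1). Prox1 (0.01) and Dsp (−0.13) differed by less than their errors, and Lct (0.65 ± 0.32) and Tdo2 (0.43 ± 0.38) were higher without overlap. The list thus did not move as one. Its median was −0.38 in removed minus mono, which shares the mono arrays, −0.21 in set 3 and −0.10 in experiment 2.

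Genes that neurons switch on with activity were mostly lower. Of 30 immediate early genes measured, 23 were lower and 7 higher, with a median of −0.21 and none called. The groups did not overlap for 7 lower and 1 higher, against 7.58% and 7.3% of all genes. The largest differences were in Ptgs2 (cyclooxygenase 2), at 101, 137 and 239 in diet and 328, 361 and 432 in mono (−1.24 ± 0.43, adjusted p = 0.896; 0.0491 in set 1 alone), and in the pentraxin gene Nptx2, at 71.0, 59.7 and 119 against 162, 126 and 365 (−1.16 ± 0.29, adjusted p = 0.399). Bhlhe40, a transcriptional repressor gene, differed by −0.77 ± 0.16 (adjusted p = 0.219). The classical activity markers were mixed: Fos differed by −0.94 ± 0.50 with overlap, Arc by −0.16 and Egr1 by 0.19. Npas4 (−0.71 ± 0.24, adjusted p = 0.896) and Jun (−0.53 ± 0.17, 0.855) were lower without overlap. The mean deviation per array was −0.13, −0.22 and −0.07 in diet and 0.08, −0.03 and 0.37 in mono, so mono replicate 2 lay close to diet replicate 3 and mono replicate 3 far above both.

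**Figure D3:**
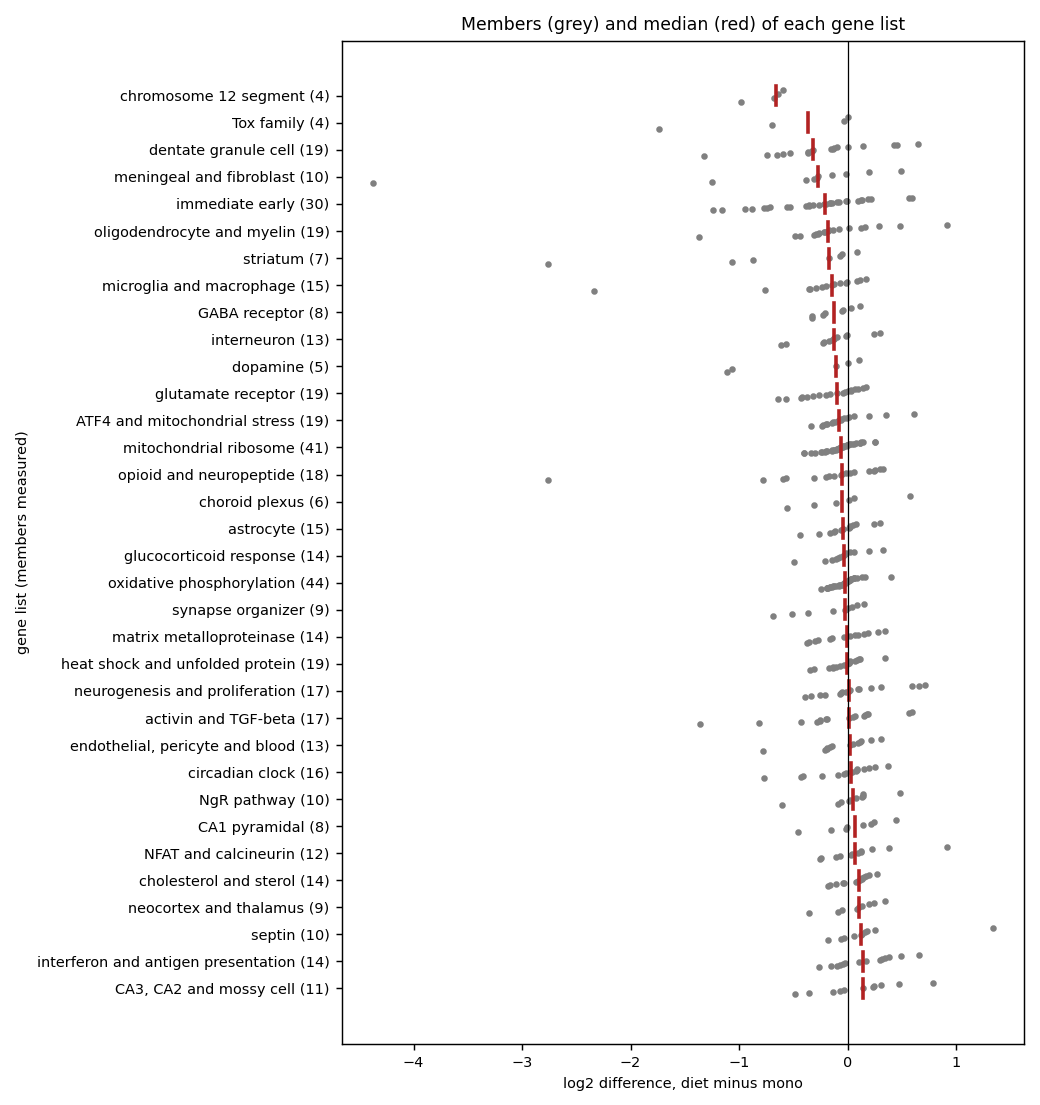
Log2 difference, diet minus mono, of every measured member (grey points) and the median (red bar) of 34 gene lists, ordered by median; the number of members measured is in brackets. The chromosome 12 segment has the lowest median (−0.66), and the medians of most lists lie within 0.2 of 0.

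Of the other lists, the glutamate receptors had 12 of 19 members lower, 5 without overlap (7.58% of all genes), and a median of −0.10. Among them the metabotropic receptor gene Grm3 had 147, 127 and 137 in diet against 231, 208 and 194 in mono (−0.56 ± 0.20, adjusted p = 0.923). Microglial markers had 12 of 15 members lower, 3 without overlap (7.58% of all genes) and none called, with sums of 2606 to 3419 in diet and 4120 to 4651 in mono. Lpl, which is not restricted to microglia, led them, and without it the sums were 2426 to 2925 in diet and 2722 to 3503 in mono. The others without overlap were the signalling adaptor gene Tyrobp (−0.76 ± 0.33, adjusted p = 1) and the purinergic receptor gene P2ry12 (−0.36 ± 0.17, adjusted p = 1). The receptor gene Csf1r (−0.23) overlapped, and Trem2 (at most 10.1) and Itgam (at most 12.7) were below the filter. In the myelin list 13 of 19 members were lower (median −0.18), 1 without overlap (7.58% of all genes), and the sums overlapped, at 4529 to 6782 and 5435 to 7143. In the neurogenesis list, the immature neuron gene Dcx (doublecortin) had 197, 179 and 276 in diet and 142, 144 and 103 in mono (0.66 ± 0.28, adjusted p = 1), and the cell cycle gene Ccnd2 had 1129, 1028 and 1017 against 607, 675 and 639 (0.71 ± 0.23, adjusted p = 0.855). Both lacked overlap, as did 7.3% of all genes on the high side. The immature neuron genes Draxin (−0.33 ± 0.18) and Stmn1 (−0.07 ± 0.07) were lower without overlap (7.58% of all genes). Of the 6 immature neuron genes measured 4 were lower. The list had 9 of 17 members higher with a median of 0.01, and 2 members lacked overlap in either direction.

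Doxycycline is a tetracycline antibiotic that can also slow translation on mitochondrial ribosomes and inhibit matrix metalloproteinases, and lists for these actions were examined. Of 41 mitochondrial ribosome and translation genes 29 were lower and 12 higher, with a median of −0.06. The groups did not overlap for 7 lower and 1 higher, against 7.58% and 7.3% of all genes, and none was called. The largest difference was −0.40 ± 0.24 in Mrps27 and −0.40 ± 0.22 in Mrps34, both genes of the small subunit, where 14 of 17 members were lower. The 44 oxidative phosphorylation genes had a median of −0.02, with 18 higher and 26 lower. Targets of ATF4 and mitochondrial stress genes had 14 of 19 lower and a median of −0.08. Metalloproteinases and their inhibitors were 7 higher and 7 lower, and the medians of heat shock (0.00) and cholesterol genes (0.11) were small as well. None of these lists held a called gene. The values are mRNA levels and measure neither translation nor enzyme activity, so these actions of the drug were not tested.

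In the activin and TGF-beta list, Fst and Pmepa1 were lower in diet than in every other array of set 1 (1.48% of all genes). Fst, which codes for the activin-binding protein follistatin, had 50.4, 71.9 and 37.3 in diet and 129, 113 and 258 in mono (−1.36 ± 0.36, adjusted p = 0.491), with removed at 265, 395 and 335. Pmepa1, a feedback inhibitor gene of TGF-beta signalling, had 53.3, 55.1 and 74.7 in diet and 155, 118 and 86.3 in mono (−0.82 ± 0.20, adjusted p = 0.399), with removed at 210, 160 and 137. The removed arrays lay above all mono arrays for Fst and overlapped them for Pmepa1. Of 4 feedback targets measured 2 were higher in diet, Klf10 (0.57 ± 0.23) with overlap and Skil (0.18 ± 0.14) without. The receptor gene Tgfbr1 was higher with overlap (0.59 ± 0.20). Over the list, 9 of 17 members were higher in diet than in mono and the median was 0.02.

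A segment of chromosome 12 around Vipr2 was low in diet as a run of neighbouring genes. Loss of this segment at the insertion site has been reported for a widely used tTA driver line, and the labels do not say whether these mice carry that line. All 4 measured genes were lower without overlap (7.58% of all genes), with a median of −0.66, and none was called. Ptprn2, which codes for a phosphatase-like protein of dense-core vesicles, had 181, 168 and 259 in diet and 392, 426 and 402 in mono, with 224, 221 and 352 in removed (−0.98 ± 0.27, adjusted p = 0.518). The membrane contact gene Esyt2 had 38.6, 23.2 and 19.1 against 52.9, 56.2 and 40.5 (−0.68 ± 0.24, adjusted p = 0.898). The condensin gene Ncapg2 had 28.6, 35.3 and 31.0 against 51.5, 54.4 and 64.3 (−0.64 ± 0.28, adjusted p = 1), and Wdr60, a gene of ciliary transport, 30.1, 28.0 and 36.6 against 49.5, 56.2 and 56.0 (−0.59 ± 0.25, adjusted p = 1). On these probe sets every diet array thus lay below every mono array in each of the 4 genes. A dimmer probe set of Ptprn2 had 17.4, 19.7 and 10.6 in diet and 5.49, 2.90 and 12.0 in mono. One of Esyt2 had 19.5, 20.5 and 5.78 in diet and 3.79, 2.68 and 15.1 in mono. Both overlapped and were higher in diet on average (0.49 and 0.43 on the deposited scale). Vipr2 itself, at 1.94 to 15.7 in the 6 arrays, was too dim to be tested.

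In diet minus mono the nearest neighbours on either side did not share the shift. The nearest measured gene before it, Zfp386, was higher in diet (0.41 ± 0.21) and the nearest after it, Gm10421 (−0.16 ± 0.20) and Rapgef5 (−0.09 ± 0.14), were near 0. The 14 measured neighbours had a median of 0.08, with 6 lower, and ran up to 1.16 ± 0.60 in Ighm, with overlap. Of these neighbours Itgb8 was lower without overlap (−0.43 ± 0.24), while Zfp386 and Cdca7l were higher without overlap. Among all 12346 windows of 5 neighbouring measured genes the lowest median was −0.72, on chromosome 13, and windows over the segment ranked next at −0.64. In removed minus mono, which shares the mono arrays, all 4 genes were lower with a median of −0.45. The neighbours there had a median of 0.17, with 5 lower, among them Gm10421 (−0.60 ± 0.20) and Itgb8 (−0.93 ± 0.24). In the independent arrays of set 3 all 4 segment genes were lower too (median −0.34, lowest −0.51). The neighbours there had a median of 0.06, with 3 lower. Ighm (−1.35 ± 0.60) and Itgb8 (−0.68 ± 0.24) were further below 0 than any segment gene. In experiment 2, by contrast, the segment genes Wdr60 (−0.49) and Ptprn2 (−0.43) were lower and Esyt2 (0.37) and Ncapg2 (0.36) higher. Of the 14 neighbours 7 were lower there, Ighm (−1.69 ± 0.60) and Gm10421 (−0.44 ± 0.20) among them. For no gene of the segment was the difference between the diet comparison and either other comparison called.

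**Figure D4:**
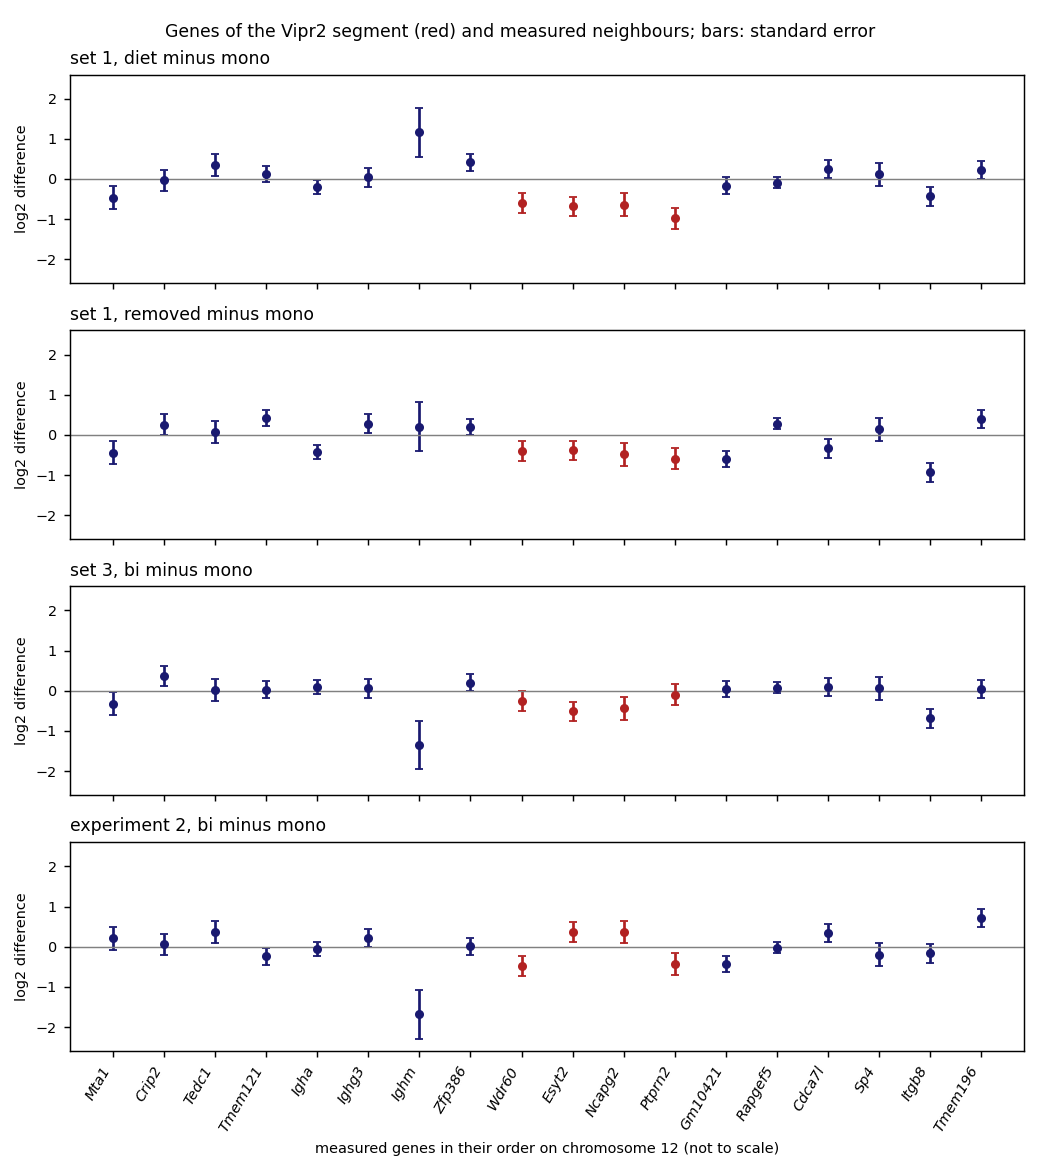
Log2 differences (points) with standard errors (bars) of the 4 measured genes of the Vipr2 segment (red) and 14 measured neighbours (dark) in chromosomal order, not to scale, in 4 comparisons. The 4 segment genes lie between −0.98 and −0.59 in diet minus mono and are all below 0 in removed minus mono and in set 3, while in experiment 2 they are split above and below 0.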

How the data were processed

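Total RNA of 21 dentate gyrus samples was hybridised to Affymetrix mouse arrays. The authors deposited 1 linear intensity per probe set and array. After trimming 2% of probe sets at either end, every array has a mean of 150, so each array had been scaled. The software used is not stated in the labels, headers or notes used here.

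Of 45101 probe sets 64 controls were left out, and 34945 had 1 gene symbol, 932 several and 9160 none. Symbols were updated by Entrez ID (34741 matched) from a RefSeq gene table of the GRCm38.p6 assembly, which served only for names and gene order. Values were taken as log2(intensity + 16) and quantile normalized. A filter on the mean kept the upper 60% (27022 probe sets, from 4.90 log2 units), and the brightest probe set stood for its gene, giving 12499 genes. Limma 3.58.1 (R 4.3.3) fitted 1 coefficient per group over all 21 arrays (14 residual degrees of freedom) with a variance trend, two-sided tests and a threshold of 0.05. Per-array list values are mean deviations from the members' mean over the 6 arrays. The fit was tested on simulated data.

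Named were Rtn4r, called genes, the 10 largest rises and falls with unadjusted p under 0.05 and no overlap, the 10 genes of lowest p in set 1 alone, up to 4 genes of lowest p per list, and the segment with its neighbours. Other genes, including tissue markers and the remaining genes called in set 1 alone, were chosen after their values were seen. The comparison, gene lists and tests were chosen with earlier results of these data known. Alternatives were other offsets, filters, scalings, sets of arrays, weights, variance models, probe set rules, a Gapdh covariate, a threshold of 0.1 and fits without single arrays. Figures were drawn with matplotlib 3.10.9.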

Additional observations from a re-analysis of the deposited data

How the results depend on the processing

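The count of called genes, diet against mono, was 3. It was 2 with an offset of 1 or 64, 3 on the deposited scale, centred on the 75th percentile or with the upper 40% of probe sets, and 4 at a threshold of 0.1. It rose to 32 on set 1 alone, 50 (10 up, 40 down) on the 6 arrays alone, 7 without experiment 2 and 41 (14 up, 27 down) with array weights. It was 1 without a variance trend, with the mean of probe sets or with all probe sets, and 0 without a filter, with the Gapdh covariate and without any 1 array (lowest 0, highest 0). Ogn, Tox3 and Septin6 kept their direction in each of these. For the segment the median of −0.66 became −0.92 with an offset of 1, −0.35 with an offset of 64 and −0.79 with the upper 40% of probe sets, which left 2 of its genes. Against experiment 2 the difference of differences called 2 genes on the deposited scale and 1 centred on the 75th percentile, against 0. The latter centring called 7 genes in diet against removed (4 in the fit above; 85, with 41 up and 44 down, in set 1 alone, a fit chosen after seeing the data) and 2 in set 3 (0). In experiment 2 the count of 12 became 5 with an offset of 64, 2 without a filter, 1 with the upper 40% and 40 on the deposited scale. Small differences changed sign in some fits. With the mean of probe sets Prox1 became −0.037 and Septin8 −0.0045, and with the Gapdh covariate Rgs9 became 0.16. Without 1 array at a time Prox1 ran from −0.10 to 0.11, Rapgef5 from −0.17 to 0.039 and Rgs9 from −0.14 to 0.034. No other gene followed through these fits changed sign. Npas4, Jun, Itgb8, Ighm, Col1a2, Igfbp2, Dcn, Pde10a, Draxin, Stmn1, Klf10, Skil and Tgfbr1 were not followed. The causes of these changes were not tested. No paired analysis was possible because replicate numbers follow accession order and pair no samples. In set 3, titles of 2 mono and 2 bitransgenic arrays share a first number that the labels do not explain, and no title number is shared between diet and mono. Signal over background limits Vipr2, Stap2, the diet level of Ogn and the other dim genes.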

Other observations

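Pdyn, the precursor gene of the dynorphin opioids, stood at 116, 104 and 89.1 in diet and 139, 183 and 171 in mono (−0.59 ± 0.34, limma adjusted p = 1), and in removed at 21.2, 62.5 and 56.0. Of 18 opioid and neuropeptide genes measured 11 were lower in diet, 4 without overlap (7.58% of all genes), with a median of −0.05. Slc6a3, the dopamine transporter gene, had 5.59, 2.84 and 5.48 in diet and 27.8, 24.9 and 32.9 in mono (−1.11 ± 0.24, adjusted p = 0.219), all at the dim end of the array. Of 5 dopamine genes measured 3 were lower, 2 of them without overlap (Slc6a3 and Drd1, against 7.58% of all genes), and 2 were higher. Among synapse organizers Lrrtm3 (−0.68 ± 0.29) and Lrrtm4 (−0.51 ± 0.21) were lower without overlap (adjusted p = 1 each), against 7.58% of all genes. Their proteins span the postsynaptic membrane and bind presynaptic partners. Of the 9 synapse organizers measured 4 were higher. In the CA3, CA2 and mossy cell list Bok, a gene of the BCL-2 family expressed in CA3, had 238, 197 and 185 in diet and 128, 73.0 and 146 in mono (0.79 ± 0.37, adjusted p = 1), and 6 of 11 members were higher.

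The run of neighbours with the lowest median, on chromosome 13, lay around histone genes. The linker histone gene H1f2 had 581, 517 and 856 in diet and 1072, 1234 and 1072 in mono (−0.81 ± 0.20, adjusted p = 0.399). H3c4, a core histone gene, had 15.1, 2.41 and 1.29 against 17.9, 24.8 and 17.8 (−0.75 ± 0.20, adjusted p = 0.491), at the dim end of the array. These were chosen after their values were seen. The histone gene H2aw on another chromosome, called in set 1 alone, had 695, 694 and 735 against 946, 1009 and 1038. Copies of histone genes are near identical, so the signal of a probe set may come from more than 1 of them.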
